A study of Homo sapiens with 12 samples.

Results

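The 48 genes described here are transcripts that proliferating cells make at set points of the cell cycle. They are 24 genes of DNA replication and the passage from G1 into S phase (called the replication genes below) and 24 genes of mitosis and the passage from G2 into M phase (called the mitotic genes). They were taken by symbol from the 59050 gene symbols of the count tables, and all 48 were found. The lines were A549 and NCI-H1299 (H1299), both from human non-small cell lung cancers. Polyadenylated RNA of each was read in cells labelled wild type and in cells whose PSME4 gene had been disrupted by CRISPR/Cas9. PSME4 encodes PA200, a cap that binds the proteasome core in the nucleus. Each line thus gave a wild-type group and a PA200 knockout group, with 3 libraries in each of the 4 groups and 12 in all. Cells were seeded at 1500000 (A549) or 1000000 (H1299) and grown for 48 h, and the labels name no other treatment. Whether the 3 libraries behind a group are different clones or parallel cultures is not stated in the labels, and the p-values describe the spread among these 12 only.

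Cells entering S phase raise the E2F transcription factors, which switch on genes for loading and firing replication origins (the ORC, CDC6, CDT1, MCM, CDC45 and GINS proteins), for making nucleotides and for packing new DNA. Later, the MuvB complex with B-MYB and FOXM1 switches on genes for chromosome condensation, the spindle, the spindle checkpoint and the anaphase-promoting complex. The level of either set in a bulk culture therefore follows both how many cells are in that phase and how much RNA each of them makes, and these cannot be told apart here.

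The promoters of these sets differ in the short motifs through which such regulators act, and 5 promoters are printed to show this. RefSeq promoters (GRCh38.p14, 250 bases before to 50 after the RefSeq start) were found for 21 replication and 19 mitotic genes. That start differs for CDC6 and KIF20A from the GENCODE gene start given further on. Those printed are the replication genes CDC6 and GINS1, the mitotic genes BUB1 and KIF20A, and TOP2A. The first 4 had the smallest adjusted p for the difference between lines among members with a motif. TOP2A was added after the values were seen as the next mitotic gene with a CHR motif. Capitals mark, on either strand, E2F-type motifs (TTTCCCGC or TTTCGCGC or TTTGCCGC or TTTGGCGC), the CHR motif (TTTGAA) and the CCAAT box. None of these motifs contains another.
CDC6: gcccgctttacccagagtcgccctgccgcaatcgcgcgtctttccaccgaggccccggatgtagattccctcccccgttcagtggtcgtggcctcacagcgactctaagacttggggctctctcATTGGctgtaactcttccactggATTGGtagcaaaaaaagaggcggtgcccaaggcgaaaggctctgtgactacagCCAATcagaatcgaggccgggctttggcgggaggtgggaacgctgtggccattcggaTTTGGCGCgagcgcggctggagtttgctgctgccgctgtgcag
GINS1: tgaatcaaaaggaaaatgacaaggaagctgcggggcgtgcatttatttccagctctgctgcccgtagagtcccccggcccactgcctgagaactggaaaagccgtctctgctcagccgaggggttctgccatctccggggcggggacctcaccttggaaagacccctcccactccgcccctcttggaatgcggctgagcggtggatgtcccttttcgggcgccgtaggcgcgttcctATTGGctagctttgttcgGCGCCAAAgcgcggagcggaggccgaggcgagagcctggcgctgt
BUB1: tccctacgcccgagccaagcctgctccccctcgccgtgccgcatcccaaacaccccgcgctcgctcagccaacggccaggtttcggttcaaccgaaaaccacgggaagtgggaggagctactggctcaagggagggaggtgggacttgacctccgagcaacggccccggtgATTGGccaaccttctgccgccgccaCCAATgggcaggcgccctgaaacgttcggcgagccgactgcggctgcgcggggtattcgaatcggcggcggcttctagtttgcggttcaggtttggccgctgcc
KIF20A: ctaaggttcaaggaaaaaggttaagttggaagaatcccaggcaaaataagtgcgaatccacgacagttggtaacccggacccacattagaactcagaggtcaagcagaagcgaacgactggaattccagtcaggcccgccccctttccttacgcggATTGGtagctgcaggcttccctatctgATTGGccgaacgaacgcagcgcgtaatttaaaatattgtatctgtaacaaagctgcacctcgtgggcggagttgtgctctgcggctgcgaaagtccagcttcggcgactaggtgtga
TOP2A: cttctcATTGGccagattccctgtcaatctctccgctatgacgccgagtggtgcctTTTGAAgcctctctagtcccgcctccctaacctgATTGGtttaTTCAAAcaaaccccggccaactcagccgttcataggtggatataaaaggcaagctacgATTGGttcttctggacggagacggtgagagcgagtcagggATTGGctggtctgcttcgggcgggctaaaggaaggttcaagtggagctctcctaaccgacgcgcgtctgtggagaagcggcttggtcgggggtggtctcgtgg
The CDC6 window lies on the plus strand at chr17:40287629-40287928, GINS1 on the plus strand at chr20:25407423-25407722, BUB1 on the minus strand at chr2:110678014-110678313, KIF20A on the plus strand at chr5:138178862-138179161 and TOP2A on the minus strand at chr17:40417847-40418146.

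An E2F-type motif stood in 14 of 21 replication promoters (66.7%) and in 2 of 19 mitotic ones (10.5%), those of CDK1 and NUSAP1. Among all 27305 promoters of the table it stood in 3.3%. The CHR motif stood in none of the 21 replication promoters and in 12 of 19 mitotic promoters (63.2%), against 15.4% of all promoters. CCAAT boxes were held by 71.4% of replication and 89.5% of mitotic promoters, against 35.7% of all. In the CDC6 and GINS1 windows above there is 1 E2F-type motif each, in TOP2A there are 2 CHR motifs and 4 CCAAT boxes, and in BUB1 and KIF20A 2 CCAAT boxes each. A match is a stretch of letters and not a measured binding site.

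All 48 members passed the filter on low counts in every comparison. PSME4, the target of the knockout, stood at 142, 197 and 195 CPM (read counts scaled to a common library size, corrected for library composition) in wild-type A549 cells and at 23.6, 21.1 and 17.2 in the A549 knockout. In H1299 it stood at 258, 218 and 239 CPM without and at 49.8, 54.3 and 51.3 with the knockout. Library totals ran from 16599401 to 40983933 counts, and the A549 knockout libraries (30645131 to 40983933 counts) all exceeded the wild-type ones of that line (16599401 to 21112339 counts). The members held between 0.749% and 1.11% of the counts of a library. CDKN2A, which A549 cells are known to have lost, had 0 counts in all 6 A549 libraries, and the epithelial keratin KRT19 had 306 to 6861 counts in A549 libraries and 0 to 2 in H1299 libraries. Of 4 epithelial markers (KRT8, KRT18, KRT19 and EPCAM), 1 was higher in the A549 knockout (KRT19, log2 fold change 2.15, adjusted p = 0.0247) and 2 (KRT8 and KRT18) were lower in the H1299 knockout, where the others had too few counts, and their part in the results was not tested. PTPRC, a leukocyte marker, had 0 counts in every library. A549 wild-type replicate 1 stood apart from its group for members with long transcripts.

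**Figure D1:**
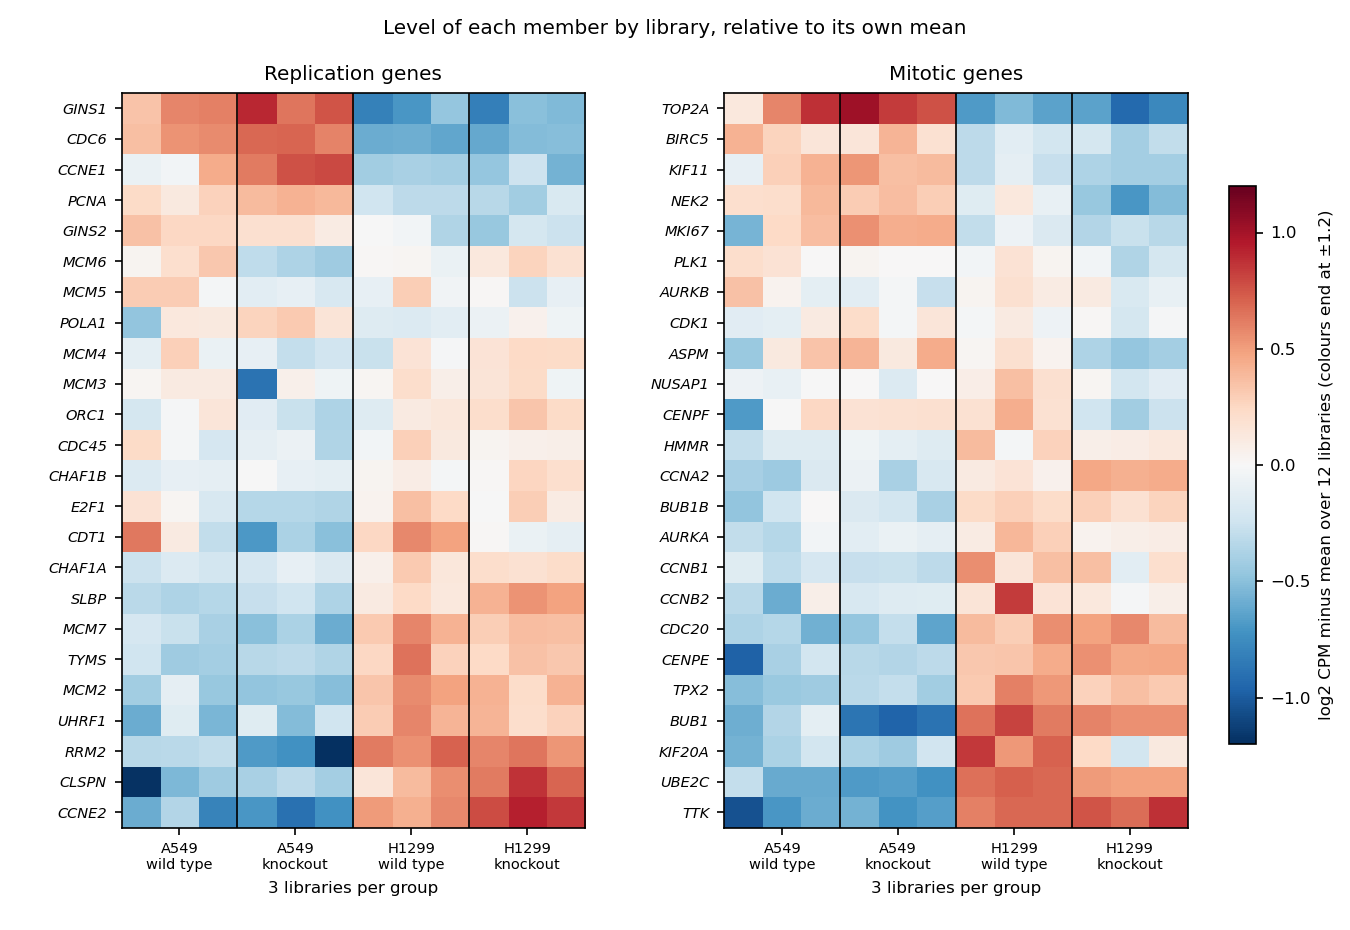
Level of each member in each library as log2 CPM minus its mean over all 12 libraries (colour), with the replication genes on the left, the mitotic genes on the right and 3 libraries per group in columns. Genes are ordered by the H1299 against A549 difference in wild type. Most rows change colour between the lines, fewer change within a line, and the column of A549 wild-type replicate 1 is paler or bluer than its group for MKI67, CENPF, ASPM and TOP2A.

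In wild-type cells of both lines PCNA, the sliding clamp of the replication fork, was the most abundant replication transcript per length, at 232 CPM per kilobase of exon in A549 and 165 in H1299. MCM7, a subunit of the replicative helicase, followed at 99.3 and 164, and TYMS, which makes thymidylate, at 81.5 and 138. The lowest replication genes per length were UHRF1, CDT1 and CCNE2 in A549 (7.83, 6.56 and 5.78) and GINS1, CDT1 and CCNE1 in H1299 (9.66, 7.76 and 5.66). CDT1, the helicase loader, was thus near the bottom in both lines.

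Among the mitotic genes TOP2A, the topoisomerase that untangles chromosomes, led in A549 at 195 CPM per kilobase, ahead of cyclin B1 (CCNB1, 130) and the spindle assembly factor TPX2. In H1299 CCNB1 and TPX2 led at 195 each, with the ubiquitin-conjugating enzyme UBE2C at 181. The lowest were ASPM, TTK and CENPE in A549 (16, 14.1 and 8.67) and NEK2, ASPM and CENPE in H1299 (22.8, 16.5 and 15.8). The median per length was 20.9 for replication and 40.2 for mitotic genes in A549, and 17.6 and 44.4 in H1299.

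The first comparison was the baseline of the lines, H1299 against A549 in wild type. More mitotic genes were higher than lower in H1299: of 24, 14 passed the test as higher and 4 as lower, and their median log2 difference was 0.43. Of 24 replication genes, 9 were higher and 5 lower, with a median of 0.14. A gene passed when its p from edgeR's quasi-likelihood test, adjusted by Benjamini-Hochberg over all 22635 genes tested, was under 0.05. Over all genes 31.8% were higher and 33.7% lower, and the median was -0.02. Against that background, 37.5% of the replication genes were higher and 20.8% lower, and 58.3% of the mitotic genes were higher and 16.7% lower. Without A549 wild-type replicate 1 the mitotic median was 0.33 and without replicate 3 it was 0.55. The replication minus mitotic difference of medians was -0.18 and -0.47 in those fits, against -0.30 with all libraries. With GC content and length corrected that difference was much smaller in size, and its value is given with the processing.

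Among origin and fork genes, CDC6, which loads the MCM helicase, stood at 122, 138 and 141 CPM in A549 and at 62.6, 63.2 and 61.5 in H1299. No library of either line overlapped the other, and CDC6 was lower in H1299 by a log2 difference of -1.10 (SE 0.09, adjusted p = 1.86e-07). Most genes given with library values were picked for a small adjusted p, so a lack of overlap, here and below, adds no separate support. The share of all genes without overlap was not counted. GINS1, a subunit of the active helicase, stood at 77.9, 92.3 and 93.7 CPM in A549 and at 35.1, 38 and 44.7 in H1299 (log2 difference -1.16, SE 0.13, adjusted p = 3.9e-06), again with no overlap. MCM7 went the other way, at 460, 442 and 404 CPM in A549 and 658, 794 and 708 in H1299 (0.73, SE 0.10, adjusted p = 2.22e-05). With the genes around each member centred (a fit described with the neighbours), GINS1 still passed as lower (-0.63), while CDC6 (0.22, adjusted p = 0.0896) and MCM7 (0.04, adjusted p = 0.724) did not pass.

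Cyclin E2 (CCNE2), a partner of CDK2 at the G1/S boundary, stood at 25, 29.5 and 21.7 CPM in A549 and at 53.6, 50.8 and 56.2 in H1299 (log2 difference 1.07, SE 0.12, adjusted p = 3.31e-06). Its sister CCNE1 was lower in H1299, at 14.3, 14.6 and 14.4 CPM against 18.1, 18.7 and 26 (-0.54, SE 0.14, adjusted p = 0.0049). The cyclin E genes therefore differed between the lines in opposite directions. MCM2 (0.78), RRM2 (0.95), TYMS (0.76), UHRF1 (0.85), CHAF1A (0.39), SLBP (0.51) and CLSPN (1.05) were also higher in H1299, and PCNA (-0.50) and GINS2 (-0.41) also lower.

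Among the mitotic genes, UBE2C, which works with the anaphase-promoting complex, stood at 118, 95.1 and 95.1 CPM in A549 and at 228, 237 and 233 in H1299 (log2 difference 1.18, SE 0.10, adjusted p = 2.05e-07). The checkpoint kinase TTK stood at 53.1, 67.6 and 72.5 CPM against 167, 176 and 177 (1.43, SE 0.12, adjusted p = 2.17e-07). TPX2, which activates Aurora A, stood at 351, 368 and 373 against 624, 763 and 719 (0.95, SE 0.09, adjusted p = 1.06e-06). In all of them every H1299 library lay above every A549 library.

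The checkpoint kinase BUB1 stood at 151, 177 and 208 CPM in A549 and at 355, 397 and 349 in H1299 (log2 difference 1.04, SE 0.11, adjusted p = 2.94e-06). KIF20A, a kinesin of the central spindle, stood at 122, 139 and 156 CPM against 327, 259 and 295 (1.08, SE 0.14, adjusted p = 1.33e-05), without overlap. The other mitotic genes that were higher in H1299 ran from NUSAP1 (0.26) and HMMR (0.42) to CENPE (0.86), and also took in CCNB1, CCNB2, CCNA2, AURKA, BUB1B and CDC20. The 4 lower mitotic genes were TOP2A, BIRC5, the kinesin KIF11 and the centrosome kinase NEK2. TOP2A showed the largest fall among them, from 929, 1270 and 1560 CPM in A549 to 529, 588 and 543 in H1299 (-1.18, SE 0.16, adjusted p = 2e-05), and without A549 replicate 1 it stood at -1.40.

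Lung cancer lines carry different numbers of copies of chromosome segments, so each member was set beside its neighbours, the 50 tested genes on either side of it (fewer at chromosome ends). CDC6 and TOP2A are close together on chromosome 17 (from 40287633 to 40304657 and from 40388516 to 40417950, GRCh38). The median log2 difference of the neighbours was -1.40 for each, and 95% of the genes around CDC6 and 94% of those around TOP2A were lower in H1299. Both members thus lay above their surroundings, by 0.30 for CDC6 and 0.22 for TOP2A. Whether copy number has a part in these values was not tested.

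Set beside their neighbours, the mitotic genes stood higher in H1299 as a set. In wild type 21 of 24 mitotic genes lay above the median of their neighbours, by a median of 0.53, and in knockout cells 21 of 24 by a median of 0.26. The replication genes lay above in 13 and below in 11 in wild type, with a median of 0.01, and over all genes 50% lay below their neighbours. With every library centred on the genes around each position before the test, 19 mitotic genes were higher in H1299 wild type and 0 lower, while 4 replication genes were higher and 8 lower. Over all genes 30.1% were higher and 31.7% lower in that fit. There TOP2A, BIRC5, KIF11 and NEK2 changed sign, to 0.13, 0.10, 0.32 and 0.27. KIF11 (adjusted p = 0.00996) and NEK2 (adjusted p = 0.0425) passed as higher, while TOP2A (adjusted p = 0.558) and BIRC5 (adjusted p = 0.375) did not pass.

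In knockout cells the same line difference was read from the same fit of 12 libraries. Of the replication genes 15 were higher and 5 lower in H1299 (median 0.44), and of the mitotic genes 10 were higher and 7 lower (median 0.19). Over all genes 33.5% were higher and 34.5% lower, with a median of 0. The order of the sets was the reverse of that in wild type, where the mitotic median was the higher. Their difference (replication minus mitotic median) was -0.30 in wild type and 0.25 in knockout cells, with no test on a difference of medians. With whole chromosomes centred it was -0.13 in knockout cells and with neighbours centred -0.19, so its sign there depended on the centring.

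All 14 replication genes that passed in wild type passed in knockout cells in the same direction (100% of the wild-type calls and 70% of the knockout calls). Of the mitotic genes 14 passed in both in the same direction (77.8% and 82.4%). No member passed in opposite directions. Over all genes 31.8% were higher and 33.7% lower in wild type, and 33.5% and 34.5% in knockout cells. The overlap of calls over all genes was not counted, so these shares cannot be read as a trait of the members. Passing in knockout cells and not in wild type were CDT1, MCM4, MCM6, ORC1, E2F1 and CHAF1B among the replication genes and MKI67, CENPF and ASPM among the mitotic genes. Passing in wild type and not in knockout cells were CCNB2, AURKA, NUSAP1 and HMMR. A pass in a single genotype is no test of the difference, which is given under the comparison of the knockout effects.

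RRM2, the regulated subunit of ribonucleotide reductase, stood in knockout cells at 233, 225 and 154 CPM in A549 and 561, 583 and 537 in H1299 (log2 difference 1.46, SE 0.13, adjusted p = 5.22e-07). BUB1 stood at 123, 116 and 122 against 342, 330 and 331 (1.47, SE 0.11, adjusted p = 1.06e-07). CCNE2 stood at 23.2, 20.3 and 22.8 against 64.8, 71.8 and 68.1 (1.62, SE 0.12, adjusted p = 5.88e-08). All of these had no overlap between the lines.

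TOP2A stood in knockout cells at 1720, 1520 and 1440 CPM in A549 and at 544, 444 and 495 in H1299 (log2 difference -1.66, SE 0.16, adjusted p = 8.48e-07), and with neighbours centred it did not pass (-0.27, adjusted p = 0.202). CDC6 (-1.21) and GINS1 (-1.38) were again lower, with CDC6 at 0.15 (adjusted p = 0.231) after centring, and UBE2C (1.18) and TTK (1.42) again higher, with sizes close to those in wild type. MKI67, the Ki-67 antigen of cycling cells, was lower in H1299 knockout cells (-0.79, SE 0.18, adjusted p = 0.00136, and 0.01 after centring), while in wild type its difference was -0.24 (adjusted p = 0.237).

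**Figure D2:**
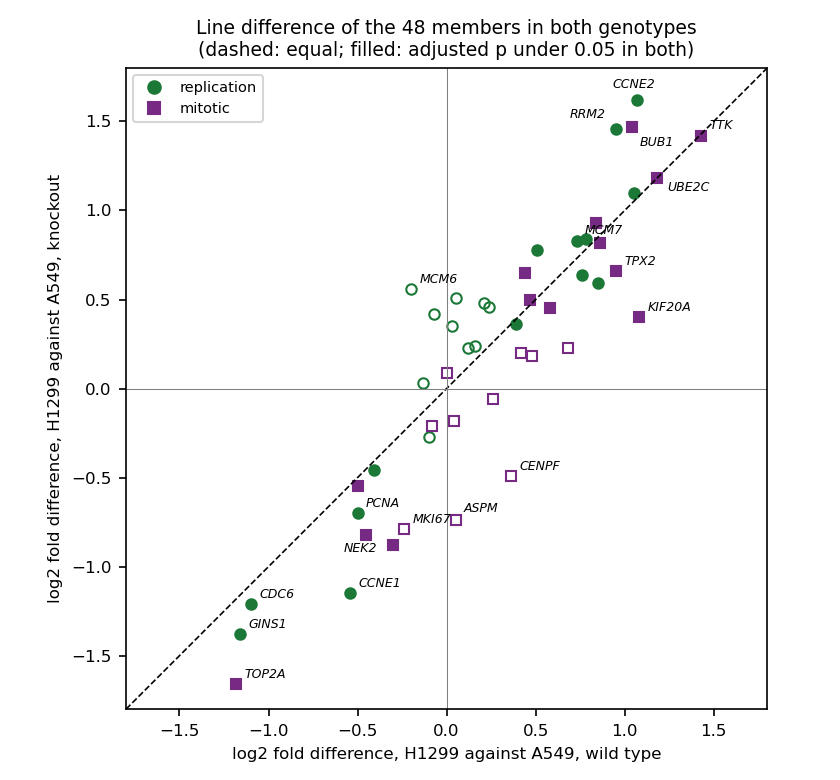
Log2 fold difference of each member between H1299 and A549 in wild type (horizontal axis) and in PA200 knockout cells (vertical axis), with replication genes as circles, mitotic genes as squares, symbols filled where both passed at adjusted p under 0.05, and a dashed line where both are equal. Most replication genes lie on or above the dashed line and most mitotic genes on or below it, with MCM6 the farthest above and CENPF and ASPM the farthest below.

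The next comparison asked what changed in A549 cells when PA200 was knocked out. None of the 24 replication and none of the 24 mitotic genes passed the test, in a comparison where 0.99% of 20093 genes were higher and 1.15% lower. At an unadjusted p under 0.05 there were 6 replication genes and 1 mitotic gene, and DESeq2 called 3 replication genes (CCNE1 higher, MCM6 and RRM2 lower) and 1 mitotic gene (BUB1, lower). The median log2 fold change was -0.16 over the replication genes (11 above and 13 below 0) and 0.08 over the mitotic genes (15 above and 9 below), against -0.01 over all genes. When each A549 wild-type library was left out in turn, the calls reached 1 replication and 1 mitotic gene without replicate 1 and 2 replication genes without replicate 3. The replication median was -0.08 without wild-type replicate 2, and the mitotic median was 0.03 without wild-type replicate 1.

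The members with the smallest adjusted p in A549 were MCM6 and BUB1, both on chromosome 2, where RRM2 also lies. MCM6, a helicase subunit, stood at 237, 266 and 289 CPM in wild type and at 187, 179 and 172 in the knockout (log2 fold change -0.57, SE 0.12, adjusted p = 0.0531). BUB1, with the A549 values given above, had a log2 fold change of -0.58 (SE 0.14, adjusted p = 0.0759), and RRM2 stood at 296, 298 and 304 CPM in wild type against 233, 225 and 154 (-0.57, SE 0.17, adjusted p = 0.115). The knockout values of each gene were all lower than its wild-type values, but the genes were picked by adjusted p and none passed.

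The whole of chromosome 2 was shifted in the A549 knockout libraries. Of its 1278 tested genes 87% lay below 0, with a median log2 fold change of -0.46. The neighbours of MCM6, BUB1 and RRM2 had medians of -0.43, -0.43 and -0.56. The members differed from them by -0.14, -0.15 and -0.01. Chromosome 8, which holds CCNE2 and MCM4, was also lower, with 78.2% of 689 genes below 0 and a median of -0.24. Chromosome 15 was higher, with 30.3% of 753 genes below 0 and a median of 0.17.

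CCNE1 stood at 18.1, 18.7 and 26 CPM in A549 wild type and at 29.6, 32.6 and 33.1 in the knockout (log2 fold change 0.58, SE 0.17, adjusted p = 0.114), above its neighbours on chromosome 19 by 0.43. CDT1 stood at 29.6, 20.5 and 15.5 CPM against 11.8, 14.7 and 13.5 (-0.73, SE 0.23, adjusted p = 0.14), with a wide spread in wild type, and differed from its neighbours on chromosome 16 by -0.62. Neither gene's groups overlapped, but both were picked by adjusted p and neither passed. MCM3, another helicase subunit, was at 112 CPM in knockout replicate 1 and between 199 and 223 in the other 5 A549 libraries (log2 fold change -0.33, SE 0.22, adjusted p = 0.471).

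Of the mitotic genes, the chromosome passenger kinase AURKB stood at 126, 102 and 91.3 CPM in wild type and 90.6, 97.2 and 81.7 in the knockout (log2 fold change -0.26, adjusted p = 0.382), with overlap. UBE2C had a log2 fold change of -0.21 (adjusted p = 0.397), from 118, 95.1 and 95.1 to 90.2, 91.2 and 87.3 CPM. MKI67 stood at 365, 632 and 696 CPM in wild type and at 785, 727 and 729 in the knockout (0.39, SE 0.22, adjusted p = 0.395). Wild-type replicate 1 was the low library there, and without it the log2 fold change was 0.16 (adjusted p = 0.434).

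That library was low for several members with long transcripts. MKI67, CENPF (227 CPM against 361 and 432), ASPM (124 against 184 and 214), TOP2A (929 against 1270 and 1560) and POLA1 (73.1 against 111 and 110) were all lowest in A549 wild-type replicate 1. Across the 48 members, the deviation of a library from its group mean correlated with transcript length at a Spearman rho of -0.66 in wild-type replicate 1, 0.77 in replicate 2 and 0.38 in replicate 3. It was 0.33, -0.28 and 0.01 in the A549 knockout libraries and within -0.06 to 0.04 in all 6 H1299 libraries. Over all 21983 genes rho was -0.30, 0.19 and 0.19 in the A549 wild-type libraries, so the pattern was not confined to the members. In the A549 knockout libraries it was 0.14, -0.22 and 0.13 over all genes. Deviations were taken from the mean of the same 3 libraries, so the rho values of a group are not separate observations. The points share libraries and depth, and the cause of the pattern was not tested. With GC content and length corrected the A549 mitotic median was -0.02 in place of 0.08.

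The knockout was then compared with wild type in H1299, where more members passed. Among the replication genes CCNE2 and SLBP rose and CDT1 fell. Among the mitotic genes CCNA2 rose, and ASPM, CENPF, NEK2 and KIF20A fell. Over all 20194 genes tested 4.66% were higher and 4.18% lower. Of the replication genes 8.3% rose and 4.2% fell, and of the mitotic genes 4.2% rose and 16.7% fell. The median log2 fold change was 0 over the replication genes (12 above and 12 below 0) and -0.16 over the mitotic genes (5 above and 19 below), against 0 over all genes.

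Cyclin E2 stood at 53.6, 50.8 and 56.2 CPM in H1299 wild type and rose to 64.8, 71.8 and 68.1 in the knockout (log2 fold change 0.35, SE 0.07, adjusted p = 0.0224). SLBP, which binds the stem-loop of histone transcripts in S phase, rose from 110, 121 and 112 to 137, 149 and 143 CPM (0.32, SE 0.07, adjusted p = 0.0239). CDT1 fell from 22.7, 28.4 and 26.6 to 19.2, 18 and 17.7 CPM (a log2 fold change of -0.50, SE 0.11, adjusted p = 0.0229). CLSPN, an adaptor of the replication checkpoint, stood at 94.3, 111 and 125 against 131, 155 and 138 (0.36, SE 0.11, adjusted p = 0.0803). In all of them the groups did not overlap, which follows in part from their choice by adjusted p, and CLSPN did not pass.

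These calls rested on few libraries. The number of replication genes that passed was 0 without knockout replicate 2 or 3, and 1 without any wild-type library (CDT1 without replicate 1, SLBP without replicate 2 and CCNE2 without replicate 3). In the 12-library fit none of the replication genes passed.

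ASPM, a spindle pole protein, stood at 172, 194 and 174 CPM in H1299 wild type and fell to 131, 123 and 128 (log2 fold change -0.50, SE 0.07, adjusted p = 0.00627). CENPF, a kinetochore and nuclear matrix protein, stood at 411, 491 and 411 CPM and fell to 308, 272 and 304 (-0.57, SE 0.09, adjusted p = 0.00823). NEK2 fell from 65.4, 78.7 and 67.9 to 52.6, 44.5 and 50.4 CPM (-0.52, SE 0.10, adjusted p = 0.0142). Each had a gap between the lowest wild-type and the highest knockout library, in genes picked by adjusted p.

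KIF20A stood at 327, 259 and 295 CPM in H1299 wild type and fell to 214, 156 and 196 in the knockout (log2 fold change -0.63, SE 0.12, adjusted p = 0.0172). Cyclin A2 (CCNA2), the cyclin of S phase and G2, moved the other way, from 144, 149 and 138 to 184, 179 and 181 CPM (0.34, SE 0.06, adjusted p = 0.0148). The mitotic genes that passed numbered 2 without knockout replicate 3 (ASPM and CENPF), 3 without wild-type replicate 3 (ASPM, CENPF and NEK2) and 7 without wild-type replicate 1, which added AURKA and NUSAP1. The other 19 mitotic genes ran from -0.36 for CCNB2 to 0.12 for CENPE and did not pass.

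**Figure D3:**
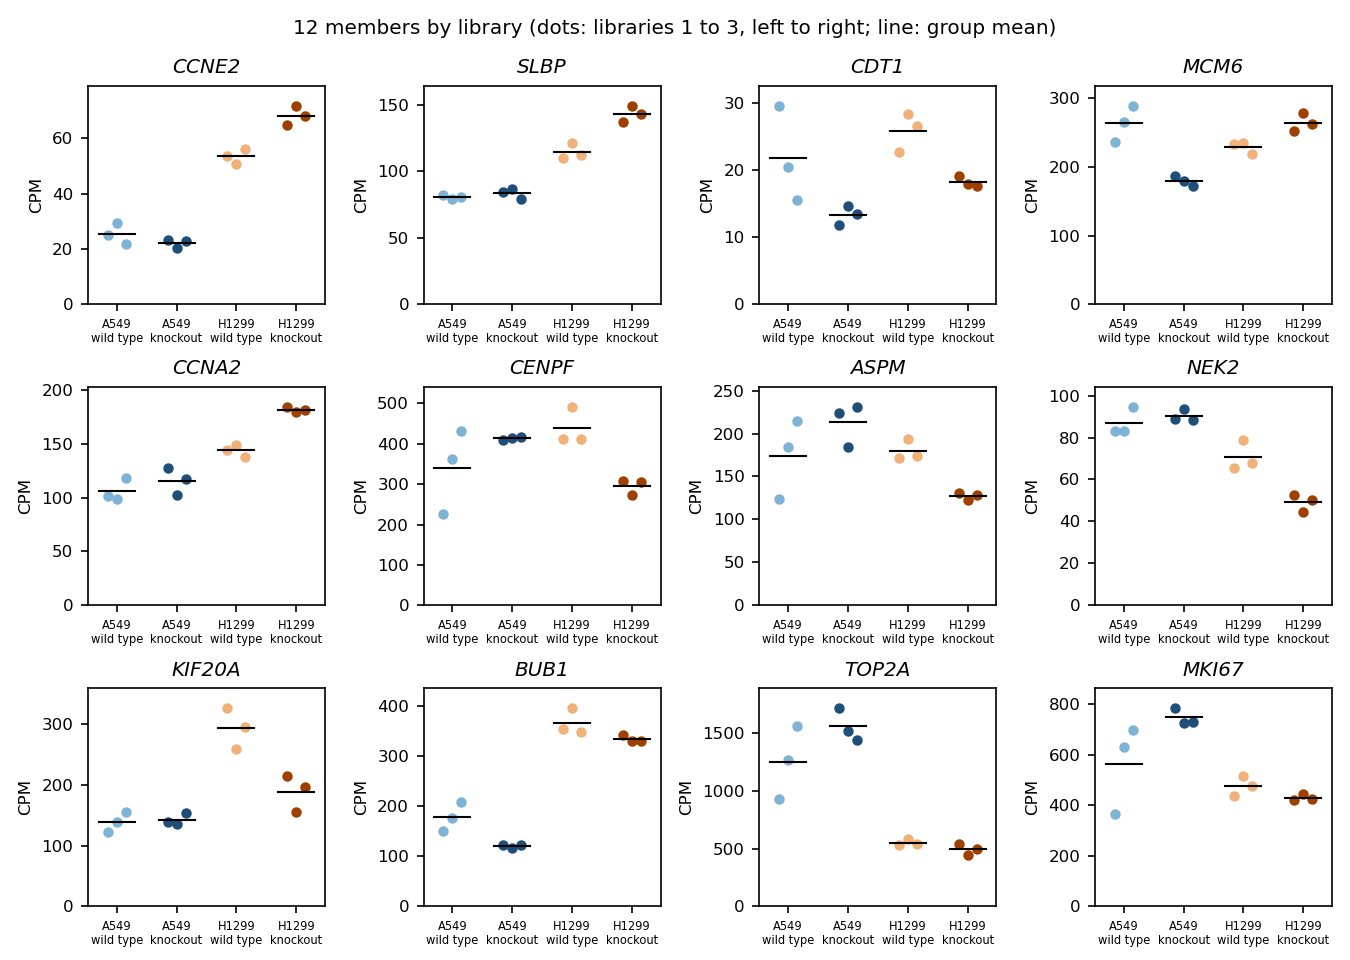
CPM of 12 members in every library, with libraries 1 to 3 of each group as dots from left to right and the group mean as a line, on axes that start at 0. In H1299 the knockout dots lie above the wild-type dots for CCNE2, SLBP and CCNA2 and below them for CDT1, CENPF, ASPM, NEK2 and KIF20A, and in A549 they lie below the wild-type dots for MCM6 and BUB1.

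Most of these H1299 members also sat in stretches whose genes moved with them. ASPM (chromosome 1, 197084128 to 197146694), NEK2 (211658657 to 211675630) and CENPF (214603195 to 214664588) lie on the same arm, and the medians of their neighbours were -0.28, -0.28 and -0.26. The neighbours of CCNA2 and SLBP, on chromosome 4, had medians of 0.34 and 0.23, those of CCNE2 on chromosome 8 a median of 0.29 and those of CDT1 on chromosome 16 a median of -0.47. KIF20A lies on chromosome 5 from 138178719 to 138187715, and its neighbours had a median of -0.22, so it stood 0.41 below them.

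With each library centred on the surrounding genes, KIF20A fell by 0.41 on the log2 scale (adjusted p = 0.0117), and NUSAP1, a spindle-stabilizing protein, also passed, where over all genes 3% were higher and 3.01% lower. No replication gene passed in that fit, and CCNA2 stood at -0.02, ASPM at -0.24, NEK2 at -0.25 and CENPF at -0.32. Taken as the log2 fold change minus the median of the neighbours, 22 of 24 mitotic genes lay below their neighbours, with a median of -0.15, against 50.1% of all genes and a median of 0. Of the replication genes 8 lay below and 14 above, with a median of 0.03. In the A549 knockout 13 mitotic genes lay below their neighbours and 10 above (median -0.01). The replication genes there lay below in 12 and above in 12 (median 0.01).

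**Figure D4:**
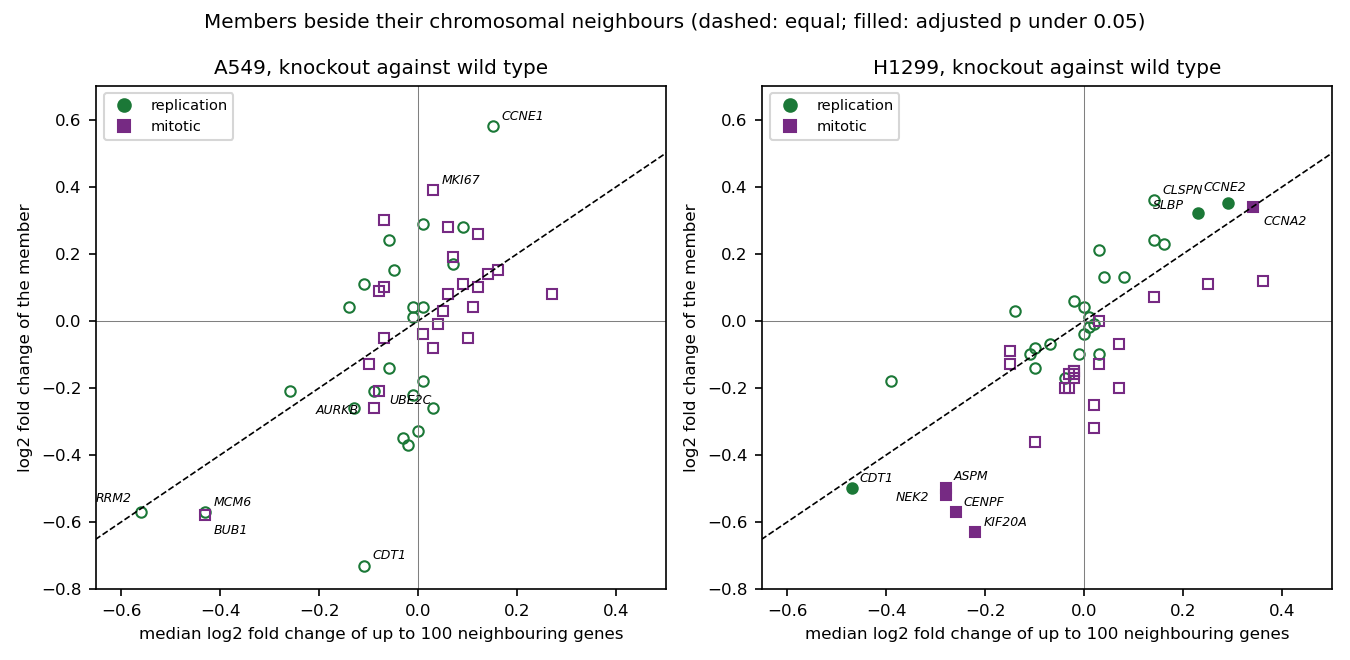
Log2 fold change of each member in the knockout (vertical axis) against the median log2 fold change of up to 100 neighbouring genes (horizontal axis), in A549 on the left and H1299 on the right, with replication genes as circles, mitotic genes as squares and filled symbols at adjusted p under 0.05. The dashed line marks equal values. In H1299 22 of 24 mitotic genes lie below it, and in A549 MCM6, BUB1 and RRM2 lie near it at its lower end.

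The mean log2 CPM of each set shows the same by library. The mitotic mean was 7.73, 7.84 and 7.76 in wild-type H1299 and 7.66, 7.52 and 7.61 in the knockout, without overlap. The replication mean was 6.58, 6.75 and 6.66 against 6.65, 6.73 and 6.69, with full overlap. The replication minus mitotic difference was -1.11 ± 0.03 (SD, n = 3) in wild-type H1299 and -0.91 ± 0.11 in the knockout, again without overlap between libraries.

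In A549 the replication mean was 6.47, 6.56 and 6.49 in wild type and 6.43, 6.46 and 6.38 in the knockout. The knockout libraries all lay below the wild-type ones under this scaling, while the highest knockout and the lowest wild-type library met under both other scalings, RLE size factors and library totals. The mitotic mean was 7.28, 7.42 and 7.55 in wild type, wider than the 7.51, 7.47 and 7.46 of the knockout, and the groups overlapped. The replication minus mitotic difference was -0.91 ± 0.13 in A549 wild type and -1.06 ± 0.04 in the knockout. These scores over members have no test.

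**Figure D5:**
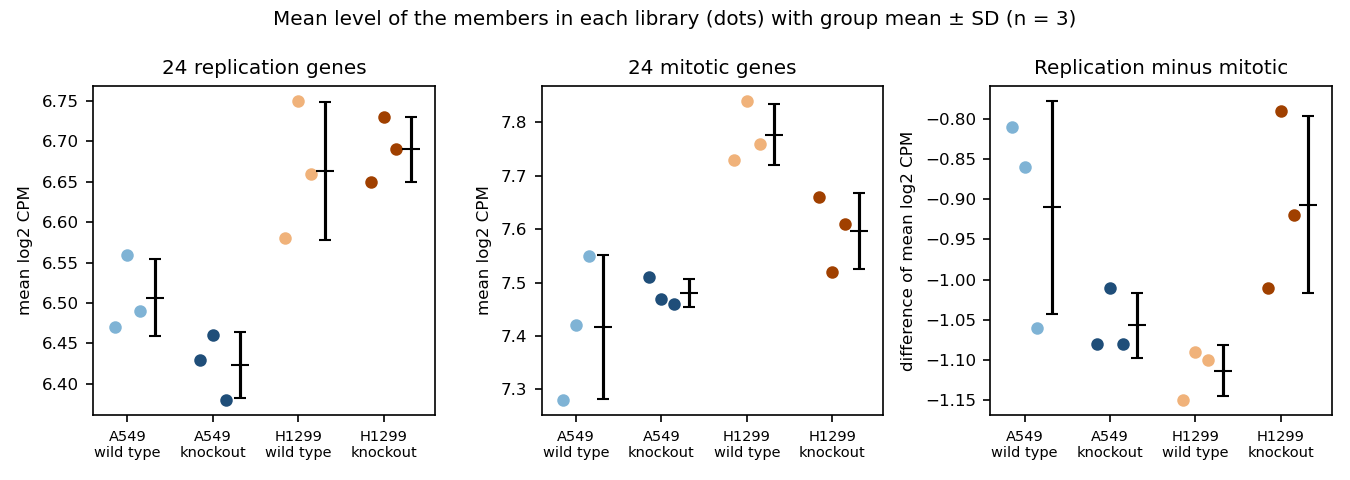
Mean log2 CPM of the 24 replication genes, of the 24 mitotic genes, and their difference in each library (dots), with the group mean and SD beside them (n = 3). In H1299 the mitotic mean is lower in all 3 knockout libraries than in all 3 wild-type libraries, and the A549 wild-type libraries spread from 7.28 to 7.55.

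The last comparison was of the knockout effects between lines, H1299 minus A549, in a fit over all 12 libraries. A single replication gene, MCM6, passed as higher and a single mitotic gene, NEK2, as lower, where over all 22635 genes 1.97% were higher and 1.52% lower. The median difference was 0.09 over the replication genes and -0.22 over the mitotic genes (19 of 24 below 0), against -0.01 over all genes. In 12 of 24 mitotic genes the A549 value was above 0 and the H1299 value below it, and in 1 the reverse. The share of all genes with such opposite signs was not counted. None of these A549 values passed, and several lay near 0. The A549 mitotic median was 0.08, and 0.03 without wild-type replicate 1.

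MCM6 stood at 234, 235 and 219 CPM in H1299 wild type and at 252, 278 and 263 in the knockout (log2 fold change 0.21, adjusted p = 0.0856), while its A549 value was -0.57. The effects differed by 0.76 (SE 0.13, adjusted p = 0.00991), and they did so in each of the 12 fits that left out a library. The neighbours of MCM6 differed by 0.38. With neighbours centred MCM6 stood at 0.35 (adjusted p = 0.112).

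NEK2 stood at 83, 83.2 and 94.6 CPM in A549 wild type and at 88.9, 93.4 and 88.2 in the knockout (log2 fold change 0.04, adjusted p = 0.888). Its effect was lower in H1299 by -0.58 (SE 0.15, adjusted p = 0.0498), just inside the threshold, and passed only without A549 wild-type replicate 3 among the fits that left out a library. KIF20A (-0.68, adjusted p = 0.0717), ASPM (-0.79, adjusted p = 0.0778), CENPF (-0.85, adjusted p = 0.0799), CCNE2 (0.55, adjusted p = 0.0831), CCNE1 (-0.61, adjusted p = 0.114) and ORC1 (0.47, adjusted p = 0.146) did not pass. Without A549 wild-type replicate 3 ASPM, CENPF, KIF20A, CCNE1 and CCNE2 passed too, which brought the calls to 3 replication and 4 mitotic genes. Without A549 wild-type replicate 1, BUB1 and CENPF passed and NEK2 did not.

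A further 150 genes of the same pathway were read in 9 lists, of G1 cyclins, CDK inhibitors, RB, E2F and MuvB regulators, other fork genes, mitotic entry, the anaphase-promoting complex, the kinetochore, spindle motors and condensin with cohesin. In the A549 knockout 1 of 4 tested CDK inhibitors rose, CDKN2C, which blocks CDK4 and CDK6 (log2 fold change 0.92, SE 0.17, adjusted p = 0.0449), and 1 of 13 condensin and cohesin genes fell, NCAPH on chromosome 2 (-0.56, adjusted p = 0.0462). With neighbours centred NCAPH stood at -0.08 (adjusted p = 0.711) and CDKN2C at 0.89 (adjusted p = 0.0498), just inside the threshold. Without A549 wild-type replicate 1 CDKN2C stood at 0.99 (adjusted p = 0.0686) and did not pass. NCAPH passed there (-0.58, adjusted p = 0.0497). None passed in the other 7 lists, and over all genes 0.99% were higher and 1.15% lower.

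In the H1299 knockout 2 of 6 CDK inhibitors fell and none rose, where over all genes 4.66% were higher and 4.18% lower. CDKN2C fell from 34.4 ± 4.69 CPM (SD, n = 3) to 22 ± 2.74 (log2 fold change -0.64, SE 0.13, adjusted p = 0.0178) and CDKN2D fell by 0.40 on the log2 scale (adjusted p = 0.0354). Of 10 mitotic entry and checkpoint genes 1 rose and 3 fell. MAD2L1, a checkpoint protein, rose from 54.9 ± 3.48 to 87 ± 4.5 CPM (0.66, SE 0.07, adjusted p = 0.00226), beyond its neighbours on chromosome 4 (0.33). CDC25C, the phosphatase that activates CDK1, fell by 0.61 on the log2 scale (adjusted p = 0.0104).

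The lists below stand against the same 4.66% of all genes higher and 4.18% lower. Of 37 other fork genes 3 rose in H1299 and none fell, with RFC1 and RPA2 at 0.40 each. Of 19 spindle and cytokinesis genes 2 fell, KIF14 (-0.44) and ECT2 (-0.37), and none rose, and 17 of 19 lay below 0 (median -0.17). Of 19 RB, E2F and MuvB regulators 3 rose and 2 fell, among them E2F5 (0.40) and TFDP1 (-0.30). Of 19 kinetochore genes 1 rose and 2 fell (PMF1, -0.62, and NUF2, -0.45), of 19 genes of the anaphase-promoting complex 1 rose (ANAPC10, 0.53), of 6 G1 genes 1 rose (CDC25A, 0.44) and of 13 condensin and cohesin genes 1 fell (NCAPD2, -0.34). With neighbours centred CDKN2C (-0.81), CDC25C (-0.38), MAD2L1 (0.32), ECT2 (-0.35), RPA2 (0.27), CDC25A (0.35), PMF1 (-0.31) and NCAPD2 (-0.30) still passed, while RFC1 (0.08), TFDP1 (-0.02), E2F5 (0.15), CDKN2D (-0.35), KIF14 (-0.17), NUF2 (-0.18) and ANAPC10 (0.13) did not.

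Between the wild-type lines 31.8% of all genes were higher in H1299 and 33.7% lower. There 14 of 19 RB, E2F and MuvB regulators were higher in H1299 and 2 lower (median 0.74). Apart from the CDK inhibitors, genes named for these lists are those with the smallest adjusted p, not the largest difference. They were the mitotic activator FOXM1 at 164 ± 12.9 CPM in A549 and 411 ± 80.7 in H1299 (1.32, adjusted p = 9.2e-07) and E2F3 (1.54). Of 6 CDK inhibitors 5 passed as higher, but CDKN2A and CDKN2B had 0 counts in every A549 library and entered the test through H1299 alone. Of the 4 with counts in both lines, CDKN1B (0.50), CDKN2C (1.35) and CDKN2D (2.71) were higher. Cyclin D3 (CCND3) was lower (-2.36) and CDC25A higher (1.42), and of the kinetochore genes 7 were higher, among them NDC80 (2.41), and 5 lower. Of 10 mitotic entry genes 1 was higher, CDC25C (1.03), and 7 lower, among them BUB3 (-0.75).

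The remaining lists of the wild-type lines stood at 9 higher and 13 lower of 37 fork genes, with DBF4 at 1.14 and RFC1 at 0.99, 8 higher and 4 lower of 19 anaphase-promoting complex genes, with FBXO5 at 1.88 and ANAPC16 at -2.00, 10 higher and 4 lower of 19 spindle genes, with KIF2C at 0.94 and CDCA8 at 1.04, and 8 higher and 2 lower of 13 condensin and cohesin genes, with STAG1 at 1.52 and NCAPG at 1.14. These counts stand against 31.8% of all genes higher and 33.7% lower. In knockout cells 33.5% of all genes were higher and 34.5% lower. There 15 of 19 RB, E2F and MuvB regulators were higher and 2 lower (median 0.73), with TFDP2 at 1.22 and E2F2 at 1.37. The other lists there stood at 2 higher and 2 lower of 6 G1 genes, 1 and 0 of the 4 CDK inhibitors with counts in both lines, 13 and 14 of 37 fork genes, 1 and 5 of 10 mitotic entry genes, 6 and 5 of 19 anaphase-promoting complex genes, 9 and 5 of 19 kinetochore genes, 6 and 7 of 19 spindle genes and 9 and 3 of 13 condensin and cohesin genes. The knockout effects differed between the lines for 1 of the 4 CDK inhibitors that had counts in both, 3 of 19 RB, E2F and MuvB regulators, 2 of 37 fork genes, 1 of 19 spindle genes and 1 of 13 condensin and cohesin genes, and for none of the G1, mitotic entry, anaphase-promoting complex and kinetochore genes. Over all genes 1.97% were higher and 1.52% lower in that comparison.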

How the data were processed

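Raw read counts per gene symbol were deposited by the authors in 1 table per cell line. Per the submitters' processing notes bcl2fastq 2.20.0.422 was used and the build was GRCm38.p6, a mouse build, while the symbols are human. The aligner, the counter and its strand setting are not given in the sources used here, so overlapping and antisense genes cannot be told apart. Per the labels' protocols the libraries were stranded poly-A TruSeq libraries.

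Symbols shared by both tables were tested with edgeR 4.0.16 in R 4.3.3 (filterByExpr with a minimum count of 10, TMM scaling, quasi-likelihood test, Benjamini-Hochberg over all genes, adjusted p under 0.05). Knockouts were tested within a line (6 libraries), and lines and the difference of knockout effects in a fit of 12. Log2 CPM used a prior count of 2. Positions and lengths came from GENCODE 29 (GRCh38), which matched 95.1% of symbols. The fits were also run on simulated counts, drawn around a shared mean with known changes in random genes. Those counts held no chromosome-wide shift or length effect, so they cannot show how the fits behave under either. Library totals limit the precision as counting error, and every member had enough counts for all tests.

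The members and gene lists were chosen with earlier results of these data known. Members were named where they were among the 4 smallest adjusted p of a set in a comparison, and up to 2 called genes of each other list. TOP2A's promoter and NUSAP1 were added after their values were seen. Alternatives were RLE and library-total scaling, other count filters, DESeq2 1.42.0, limma 3.58.1 voom, a stricter threshold, other samples in the fit, centring by chromosome, thinning, a GC and length correction, leaving out each library and, chosen after seeing the data, centring on up to 50 neighbouring genes on either side.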

Additional observations from a re-analysis of the deposited data

Results flagged for a closer look

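The knockout effect differed between H1299 and A549 (difference of log2 fold changes, H1299 minus A549, edgeR's quasi-likelihood test) for 2 members and 8 other cell cycle genes. Over all 22635 genes tested 1.97% were higher and 1.52% lower. MCM6 differed by 0.76 (adjusted p = 0.00991), with -0.57 in A549 and 0.21 in H1299, and stood at 0.35 (adjusted p = 0.112) after centring on neighbouring genes. NEK2 differed by -0.58 (adjusted p = 0.0498), with 0.04 in A549 and -0.52 in H1299, and stood at -0.22 (adjusted p = 0.539) after centring. CDKN2C, an inhibitor of CDK4 and CDK6, differed by -1.58 (adjusted p = 0.00346), with 0.92 in A549 and -0.64 in H1299, and stood at -1.74 (adjusted p = 0.00376) after centring, still past the threshold.

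Among the regulators, E2F5 differed by 0.84 (adjusted p = 0.0337), E2F6 by 0.99 (adjusted p = 0.0203) and TFDP1 by -0.61 (adjusted p = 0.0301). Among the origin recognition genes, ORC2 differed by 0.73 (adjusted p = 0.0346) and ORC4 by 0.52 (adjusted p = 0.0485). The midzone gene PRC1 differed by -0.66 (adjusted p = 0.0495) and the condensin gene NCAPH by 0.61 (adjusted p = 0.024). After centring these 7 genes stood at 0.42, 0.40, -0.17, 0.37, 0.11, -0.36 and 0.13 in the same order, and none passed. The part of chromosome position in these differences was not tested.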

How the results depend on the processing

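No paired analysis was possible because the labels give no replicate numbers. Values are given as replication then mitotic genes. In the A549 knockout the members called were 1 and 1 with no filter, 3 and 1 with DESeq2, 2 and 1 with the GC and length correction and 4 and 1 in the 12-library fit. The medians were -0.10 and -0.01 (difference -0.09) with chromosomes centred, the mitotic median -0.02 and the difference -0.12 with the GC and length correction, and -0.02 and -0.01 (difference -0.01) with neighbours centred. In the H1299 knockout 8 mitotic genes were called with no filter, 1 replication gene with the GC and length correction, and 0 and 2 with neighbours centred, at adjusted p under 0.01 and in the 12-library fit.

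Between wild-type lines the medians were 0.24 and 0.53 with library totals, where the median of all genes was 0.08. The replication median was 0.03 (difference -0.41) with chromosomes centred, 0.36 (difference -0.05) with the GC and length correction and 0.03 with neighbours centred (mitotic 0.52, difference -0.49). Between knockout lines the medians were 0.53 and 0.28 with library totals (all genes 0.09), 0.21 and 0.35 (difference -0.13) with chromosomes centred, 0.64 and 0.39 with the GC and length correction, and the replication median was 0.06 with 13 calls (difference -0.19) with neighbours centred. For the difference of knockout effects the mitotic calls were 0 with library totals, thinned counts and adjusted p under 0.01, 3 with no filter and 4 with DESeq2 (replication 2) and with the GC and length correction (replication median 0.17), and both sets had 0 with chromosomes (difference of medians 0.22) or neighbours centred. With library totals the set levels were 6.38 (replication) and 7.44 (mitotic) in A549 knockout, 6.45 (replication) in A549 wild type and 6.74 (replication) in H1299 knockout.

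Signs reversed only with centring. With chromosomes centred SLBP stood at -0.02 and CCNA2 at 0 in the H1299 knockout, CHAF1A at -0.03 and KIF11 at 0.17 between wild-type lines, and CHAF1B at -0.17 and ZWINT at 0.02 between knockout lines. With neighbours centred CCNA2 stood at -0.02 in the H1299 knockout. Between wild-type lines CDC6 then stood at 0.22, CHAF1A at -0.27, SLBP at -0.02, AURKA at -0.09, TOP2A at 0.13, KIF11 at 0.32, NUSAP1 at -0.04, BIRC5 at 0.10, NEK2 at 0.27 and BUB3 at 0.05. Between knockout lines CDC6 stood at 0.15, MCM6 at -0.26, CHAF1A at -0.29, CHAF1B at -0.23, MKI67 at 0.01, CENPF at 0.27, KIF11 at 0.04, BIRC5 at 0.18, NEK2 at 0.05, ASPM at 0.21 and BUB3 at 0.03. The cause was not tested.

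Leaving out 1 library moved the A549 knockout calls between 0 and 2 and between 0 and 1, with the replication median between -0.15 and -0.08 and the difference between -0.28 and -0.10. It moved the H1299 knockout calls between 0 and 3 and between 2 and 7, the wild-type mitotic median between 0.33 and 0.55 with the difference between -0.47 and -0.18, and the calls for the difference of effects between 1 and 3 and between 0 and 4, with the difference of medians between 0.25 and 0.41.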
